A study of Mus musculus with 36 samples.

Results

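The genes described here encode the nuclear part of oxidative phosphorylation: 94 genes for the subunits and named assembly factors of complexes I to IV of the mitochondrial respiratory chain, for cytochrome c and for the ATP synthase (complex V). They were taken by gene symbol (Nduf, Sdh, Uqcr, Cyc1, Cycs, Cox4 to Cox8 and Atp5, without pseudogenes), with the transcript cluster of the highest mean signal for each gene, out of 42074 gene symbols on 40160 tested transcript clusters. A transcript cluster is the set of probes that an array assigns to 1 gene locus. Atp5d and Ndufa13 each had 2 transcript clusters, and that of Ndufs5 also carries the symbol BC002163. Complex I has 43 of the 94 genes, complex II 4, complex III 9, cytochrome c 1, complex IV 20 and complex V 17.

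Expression was measured in 36 single mouse blastocysts of B6C3F1 x CD1 background. Each grew from 1 blastomere of a 2-cell embryo that had been cut apart, and is called a half-embryo below. After the 2-cell stage, which all embryos reached in KSOM(aa), the sister blastomeres of embryos 9 to 18 were placed apart in GM501 (sister a, n = 10) and in SAGE 1-step (sister b, n = 10), both commercial media made for human fertility clinics, and both sisters of embryos 1 to 8 stayed in KSOM(aa), a laboratory mouse embryo medium with amino acids (n = 16). The replicates are separate embryos, except that sisters share an embryo, and every half-embryo had its own array. No array set, as the scan names give it, held KSOM(aa) together with another medium, so in the comparisons with KSOM(aa) the medium cannot be told apart from the array set.

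Oxidative phosphorylation works as a relay. Complex I (NADH dehydrogenase) and complex II (succinate dehydrogenase) pass electrons to coenzyme Q, complex III passes them on to cytochrome c, complex IV (cytochrome c oxidase) hands them to oxygen, and complex V uses the proton gradient built on the way to make ATP. Mitochondrial DNA encodes a few subunits and nuclear DNA encodes the rest. The mouse embryo depends on mitochondrial use of pyruvate in its first cleavages, and oxygen uptake rises as the blastocyst forms.

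All but 2 of the 94 genes were detected, that is, exceeded the level of olfactory and vomeronasal receptor probes in no fewer than 50% of the half-embryos of some medium. The exceptions were Cox8b, a heart and muscle isoform of a complex IV subunit, and Ndufa4l2, an isoform of the complex IV subunit Ndufa4. For comparison, 56.7% of all tested transcript clusters were detected. Mean log2 signals of the 94 genes ran between 3.66 and 17.20, a span that cannot be read as an order of expression because different probes are not comparable. Of the markers checked, 7 of 7 for trophectoderm, 6 of 6 for epiblast, 5 of 6 for primitive endoderm and 4 of 9 for cumulus and granulosa cells were detected.

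In both clinical media, the signals of embryos 9 to 14 set them off from embryos 15 to 18. Signals of the 18S ribosomal RNA gene Rn18s ranged between 16.15 and 17.65 in the 12 half-embryos of embryos 9 to 14, between 18.46 and 18.66 in the 8 of embryos 15 to 18, and between 17.96 and 18.71 in KSOM(aa). Gapdh showed the same order, with 13.90 to 15.24, 15.55 to 15.90 and 15.48 to 15.93 log2 units. The median signal of an array was 5.16 to 5.52 in embryos 9 to 14, 4.87 to 5.36 in embryos 15 to 18 and 4.98 to 5.21 in KSOM(aa). This split of the embryos is known only from the signals. Counts of called genes against KSOM(aa) are also given within each set of embryos. They serve as a description only, because choosing arrays by their signals partly fixes them. The sets themselves are compared without a test.

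The media were compared first: do the genes of the respiratory chain and ATP synthase differ in half-embryos grown in a clinical medium? In GM501, 21 of the 94 genes differed, 15 higher and 6 lower than in KSOM(aa), by 0.30 to 0.98 log2 units upward and −0.46 to −0.98 downward (limma, adjusted p under 0.05 over all 40160 transcript clusters). Of the genes that were higher all but Atp5c1 encode accessory or small subunits and assembly factors. Of the 6 that were lower, 5 encode catalytic or core subunits of complex III or F1 subunits of complex V. Over all tested transcript clusters 7.66% were called, 4.06% higher and 3.60% lower, and among the detected ones 12.5%, with 6.39% higher and 6.12% lower. In SAGE 1-step, 25 of the 94 differed, 18 higher and 7 lower, where 9.55% of all transcript clusters were called, 5.13% higher and 4.42% lower, and 15.3% of the detected ones, with 7.79% higher and 7.50% lower. The comparisons share their KSOM(aa) arrays.

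Counting direction alone, 75 of the 94 genes were above 0 in GM501 minus KSOM(aa) (79.8%, against 69.9% of all tested and 64.3% of detected transcript clusters), with a median of 0.23 (all tested 0.09, detected 0.12). In SAGE 1-step 78 were above 0 (83.0%, against 70.2% and 63.9%), with a median of 0.26 (all tested 0.10, detected 0.12). The balance of higher and lower calls moved with the scaling of the arrays. With every array centred on its median, the calls were 7 higher and 6 lower in GM501 and 11 higher and 9 lower in SAGE 1-step. Scaled to Actb, Gapdh and Hprt, of which Actb and Gapdh were themselves dimmer in embryos 9 to 14 than in the other embryos, the median of all transcript clusters shifted to 0.61 and 0.69, and 81 and 82 of the 94 genes were called higher, with only Uqcrc1 lower in each medium. After the sister values of KSOM(aa) were averaged, which left 8 samples there, only 1 gene was called in GM501 (Atp5d) and 2 in SAGE 1-step (Atp5d and Cyc1), all lower, where the calls over all transcript clusters fell to 591 and 743.

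**Figure D1:**
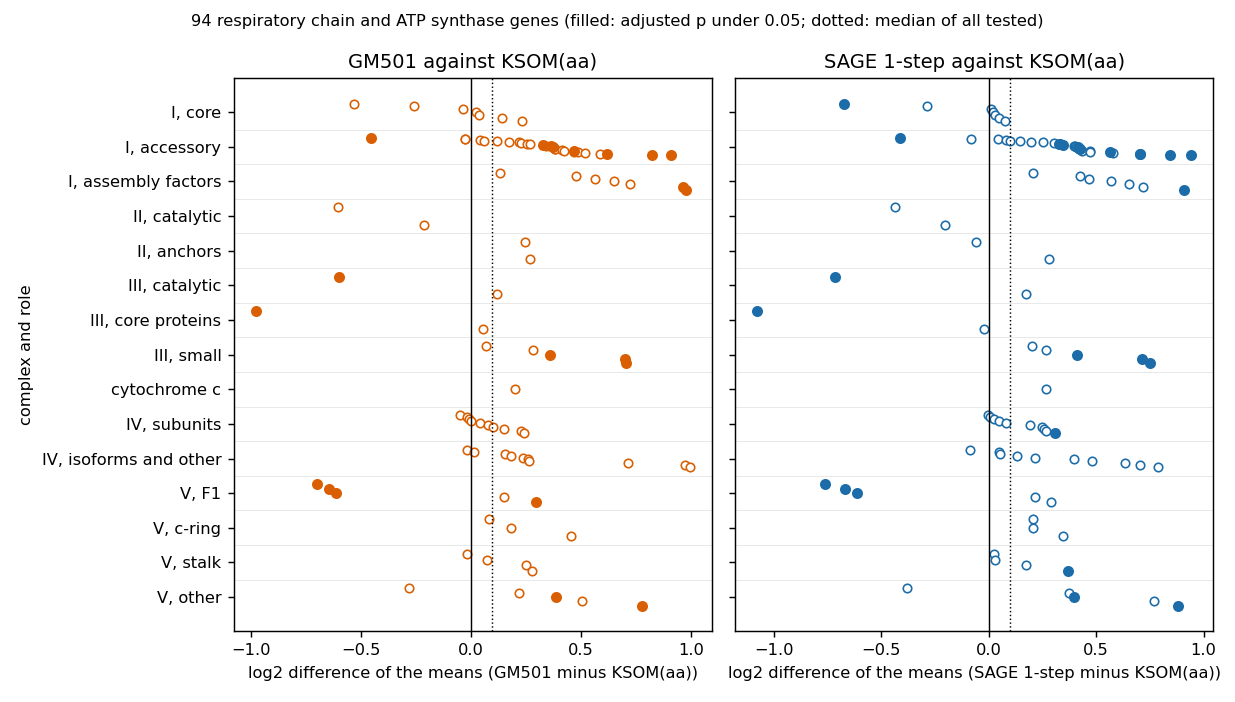
Log2 difference of the means, GM501 minus KSOM(aa) on the left and SAGE 1-step minus KSOM(aa) on the right, for the 94 genes grouped by complex and role; filled points have a limma adjusted p under 0.05, the solid line marks 0 and the dotted line the median of all tested transcript clusters. The accessory subunits and assembly factors of complex I lie mostly right of 0, while 3 of the 5 F1 subunits, Cyc1 and Uqcrc1 lie left of it.

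Complex I, the entry point for electrons from NADH, had the highest median of the 5 complexes in both media, 0.36 in GM501 and 0.40 in SAGE 1-step. Of its 43 genes 9 were higher and 1 lower in GM501, and 11 higher and 2 lower in SAGE 1-step. The 29 accessory subunits, which surround the catalytic core and do not carry electrons, had 7 higher and 1 lower in GM501 (median 0.37) and 10 higher and 1 lower in SAGE 1-step (median 0.41). Ndufaf5, an assembly factor that modifies a core subunit, had log2 signals of 7.39, 8.27 and 8.91 in GM501 (lowest, median, highest), 6.95, 8.39 and 9.12 in SAGE 1-step and 6.59, 7.32 and 8.11 in KSOM(aa). The groups overlapped, and the medians of the 2 clinical media lay above the highest KSOM(aa) half-embryo. The difference was 0.98 ± 0.23 in GM501 (SE, adjusted p = 0.00734) and 0.91 ± 0.23 in SAGE 1-step (adjusted p = 0.0103), a fold change of 1.97 and 1.88. All 7 assembly factors were above 0 in both media, with medians of 0.65 and 0.57, but the test was passed by Ndufaf3 and Ndufaf5 in GM501 and by Ndufaf5 alone in SAGE 1-step. Ndufaf3, which acts early in the assembly of the complex, differed by 0.96 ± 0.27 in GM501 (adjusted p = 0.0217) and by 0.72 ± 0.27 in SAGE 1-step (adjusted p = 0.0798).

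Among the accessory subunits, Ndufa3 had 9.22, 10.41 and 11.63 log2 units in GM501 (lowest, median, highest), 9.60, 10.51 and 11.02 in SAGE 1-step and 9.08, 9.54 and 10.10 in KSOM(aa). It was higher by 0.91 ± 0.21 (adjusted p = 0.00756) and 0.84 ± 0.21 (adjusted p = 0.0108). Ndufa7 spanned 8.39, 9.46 and 10.60 in GM501, 8.46, 9.92 and 10.26 in SAGE 1-step and 8.22, 8.41 and 9.31 in KSOM(aa). The low end of both clinical groups lay inside the KSOM(aa) range and their high end about 1 log2 unit beyond it. The difference of Ndufa7 was 0.82 ± 0.24 (adjusted p = 0.0281) and 0.94 ± 0.24 (adjusted p = 0.0101). The other accessory subunits called higher in GM501 were Ndufs4 (0.62), Ndufab1, the mitochondrial acyl carrier protein (0.47), Ndufa12 (0.37), Ndufc2 (0.36) and Ndufb2 (0.33). In SAGE 1-step they were Ndufs4 (0.71), Ndufa2 (0.71), Ndufb11 (0.56), Ndufb2 (0.42), Ndufab1 (0.41), Ndufc2 (0.34), Ndufa5 (0.33) and Ndufa12 (0.33). Ndufb11 is 1 of 3 genes of the 94 on the X chromosome, and Xist, the RNA that silences an X chromosome, exceeded 8 log2 units, inside a gap of its values between 7.20 and 8.45, in 5 of 10 GM501, 7 of 10 SAGE 1-step and 4 of 16 KSOM(aa) half-embryos. Its part in the result was not tested.

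Of the 7 nuclear core subunits of complex I, which carry the electrons, none was called higher in either medium, and the medians were 0.02 in both. Ndufv1, which binds NADH and takes its electrons, had 10.82, 11.94 and 12.48 log2 units in GM501 (lowest, median, highest), 10.72, 11.86 and 12.37 in SAGE 1-step and 11.93, 12.43 and 12.94 in KSOM(aa). It was lower, at −0.67 ± 0.18 in SAGE 1-step (adjusted p = 0.0163), and the difference in GM501 was −0.53 ± 0.18 (adjusted p = 0.0649). The iron-sulfur subunits Ndufs1 and Ndufs7 differed by −0.03 to 0.04 in both media. The only accessory subunit that was lower was Ndufa9, which sits at the coenzyme Q channel, at −0.46 ± 0.13 in GM501 (adjusted p = 0.0214) and −0.41 ± 0.13 in SAGE 1-step (adjusted p = 0.0316), with medians of 15.33, 15.34 and 15.77 in GM501, SAGE 1-step and KSOM(aa).

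None of the 4 genes of complex II, which couples the tricarboxylic acid cycle to the chain, was called. Sdha, the flavoprotein that oxidises succinate, had 9.53, 10.26 and 11.23 log2 units in GM501 (lowest, median, highest), 9.61, 10.49 and 11.29 in SAGE 1-step and 10.11, 10.87 and 11.69 in KSOM(aa). Its difference was −0.60 ± 0.21 (adjusted p = 0.0621) and −0.44 ± 0.21 (adjusted p = 0.168). Sdhb, the iron-sulfur subunit, differed by −0.21 and −0.20 (adjusted p = 0.329 each), and Sdhc, a membrane anchor, by 0.27 (adjusted p = 0.386) and 0.28 (adjusted p = 0.343).

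In complex III genes were called in both directions. Uqcrc1, a core protein of the complex, had the lowest difference of all 94 genes: log2 signals of 12.01, 13.52 and 14.73 in GM501 (lowest, median, highest) and 11.55, 13.86 and 14.39 in SAGE 1-step, against 13.86, 14.48 and 15.07 in KSOM(aa). The median of GM501 lay below the lowest KSOM(aa) half-embryo, and that of SAGE 1-step level with it. The differences were −0.98 ± 0.27 (adjusted p = 0.0230) and −1.08 ± 0.27 (adjusted p = 0.0105), about 1.97-fold and 2.11-fold lower than in KSOM(aa). Cyc1, the cytochrome that delivers electrons to cytochrome c, had 14.02, 15.06 and 15.40 log2 units in GM501, 14.24, 14.81 and 15.24 in SAGE 1-step and 15.02, 15.47 and 15.90 in KSOM(aa). It was lower, at −0.60 ± 0.14 (adjusted p = 0.00647) and −0.71 ± 0.14 (adjusted p = 0.00139). The Rieske iron-sulfur protein Uqcrfs1 differed by 0.12 and 0.17 and was not called, nor was the other core protein, Uqcrc2.

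All 5 small subunits of complex III were above 0 in both media and 3 of them, Uqcr10, Uqcrh and Uqcrb, were called higher. Uqcr10 had 12.20, 13.05 and 13.63 log2 units in GM501 (lowest, median, highest), 11.96, 13.14 and 14.00 in SAGE 1-step and 11.59, 12.17 and 12.64 in KSOM(aa), a difference of 0.70 ± 0.20 (adjusted p = 0.0246) and 0.71 ± 0.20 (adjusted p = 0.0191). Uqcrh, the hinge protein that bridges to cytochrome c1, differed by 0.70 ± 0.19 (adjusted p = 0.0198) and 0.75 ± 0.19 (adjusted p = 0.0110). Uqcrb, a ubiquinone-binding subunit, differed by 0.36 and 0.41. Cycs, the somatic cytochrome c that carries electrons on to complex IV, had medians of 13.65, 13.83 and 13.45 in GM501, SAGE 1-step and KSOM(aa), and its differences of 0.20 (adjusted p = 0.335) and 0.26 (adjusted p = 0.184) did not pass the test.

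Complex IV, the terminal oxidase, had 0 of 20 genes called in GM501 and 1 in SAGE 1-step. That gene was Cox7a2, the widely expressed form of a small subunit, with 16.94, 17.47 and 17.64 log2 units in SAGE 1-step (lowest, median, highest) and 16.72, 17.06 and 17.25 in KSOM(aa). It was higher by 0.31 ± 0.09 in SAGE 1-step (adjusted p = 0.0189), and the difference in GM501 was 0.24 ± 0.09 (adjusted p = 0.0774). Cox4i1, the subunit at which ATP regulates the enzyme, differed by 0.00 ± 0.08 and 0.04 ± 0.08, Cox6c by 0.08 in both media, Cox6a1 by 0.04 and 0.03, and Cox8a by −0.05 and 0.00. Their isoforms of restricted tissues, all uncalled, differed by −0.02 and 0.05 for Cox4i2 of lung, 0.26 and 0.40 for Cox6a2 of heart and muscle, and 0.26 and 0.48 for Cox6b2 of testis. Cox8c of testis differed by 0.18 and −0.09. The muscle isoform Cox7a1 had the largest difference and the widest scatter, with 9.69, 11.51 and 13.50 log2 units in GM501, 8.06, 12.20 and 14.05 in SAGE 1-step and 9.66, 10.57 and 12.25 in KSOM(aa). Its difference of 0.99 ± 0.52 (adjusted p = 0.240) and 0.79 ± 0.52 (adjusted p = 0.333) lay within that scatter.

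Complex V had 3 genes higher and 3 lower in each medium. The 3 that fell belong to the F1 part. They were Atp5a1 and Atp5b, the alpha and beta subunits that bind nucleotides, and Atp5d, the delta subunit of its rotating stalk. Atp5b had 12.51, 13.13 and 13.92 log2 units in GM501 (lowest, median, highest), 12.18, 13.32 and 13.88 in SAGE 1-step and 13.56, 13.90 and 14.11 in KSOM(aa). The clinical groups reached down more than 1 log2 unit below KSOM(aa) and ended inside its range. Atp5b was lower, at −0.61 ± 0.16 (adjusted p = 0.0170) and −0.67 ± 0.16 (adjusted p = 0.00809). Atp5a1 was lower, at −0.65 ± 0.18 (adjusted p = 0.0216) and −0.61 ± 0.18 (adjusted p = 0.0247). Atp5d had 8.56, 8.80 and 9.68 log2 units in GM501, 8.43, 8.78 and 9.61 in SAGE 1-step and 9.09, 9.64 and 10.10 in KSOM(aa), and was lower, at −0.70 ± 0.15 (adjusted p = 0.00372) and −0.76 ± 0.15 (adjusted p = 0.00141). Atp5c1, the gamma subunit at the centre of the same rotor, was higher in GM501 by 0.30 ± 0.09 (adjusted p = 0.0345), with 0.22 ± 0.09 in SAGE 1-step (adjusted p = 0.118).

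In the membrane part of complex V the called genes were all higher. Atp5k, subunit e, which helps ATP synthases to form dimers, had 11.42, 12.85 and 13.71 log2 units in GM501 (lowest, median, highest), 11.67, 13.10 and 13.52 in SAGE 1-step and 11.26, 11.85 and 12.24 in KSOM(aa). It was higher by 0.78 ± 0.24 (adjusted p = 0.0425) and 0.88 ± 0.24 (adjusted p = 0.0185), a fold change of 1.71 and 1.84. Atp5j2, subunit f, was higher by 0.39 and 0.40, and the peripheral stalk subunit Atp5h by 0.37 in SAGE 1-step. The 3 genes for the proton-carrying c-ring, Atp5g1, Atp5g2 and Atp5g3, encode the same mature protein and differed by 0.08, 0.45 and 0.18 in GM501 and 0.20, 0.35 and 0.20 in SAGE 1-step, none of them called. The stalk subunit Atp5o differed by 0.07 and 0.02.

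**Figure D2:**
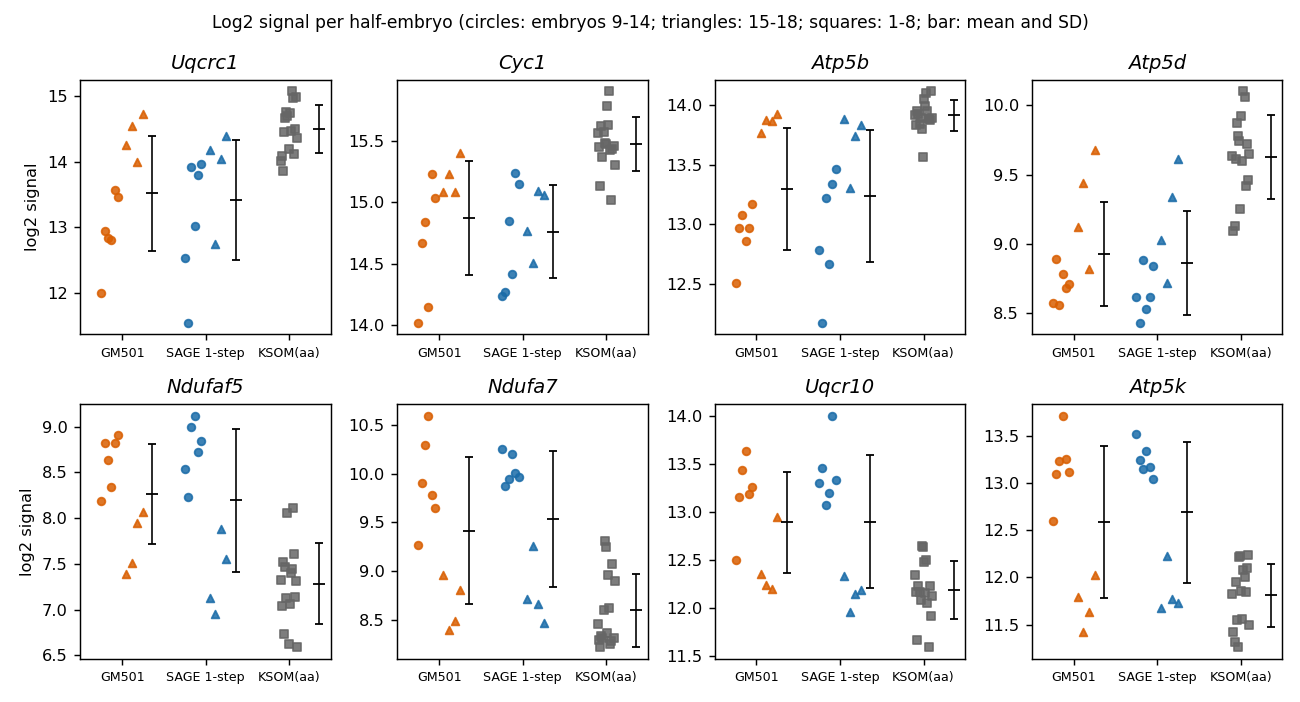
Log2 signal of 8 genes in each half-embryo, in GM501, SAGE 1-step and KSOM(aa); circles are embryos 9 to 14, triangles embryos 15 to 18, squares embryos 1 to 8, and the bar gives the mean and SD of the medium. In the upper row (Uqcrc1, Cyc1, Atp5b, Atp5d) the clinical media reach below KSOM(aa), in the lower row (Ndufaf5, Ndufa7, Uqcr10, Atp5k) above it, and the circles lie farther out than the triangles in most panels.

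By role across complexes, 18 genes were grouped as core and catalytic subunits of complexes I, II, III and V, with all F1 subunits counted for complex V. They had 1 gene higher and 5 lower in GM501 (median −0.12) and 0 higher and 6 lower in SAGE 1-step (median −0.11). The other 74 detected genes had 14 higher and 1 lower (median 0.27) and 18 higher and 1 lower (median 0.34). The number of probes ran along with this split: large genes have more probes. Among detected members the median difference in GM501 was 0.28 for the 35 genes with up to 60 probes, 0.23 for the 28 with 61 to 120 and 0.04 for the 29 with more than 120, and in SAGE 1-step 0.34, 0.29 and 0.03. All detected transcript clusters showed the same order, with 0.17, 0.14 and 0.00 in GM501 and 0.18, 0.15 and 0.00 in SAGE 1-step. The part of probe number in the difference between roles was not tested.

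**Figure D3:**
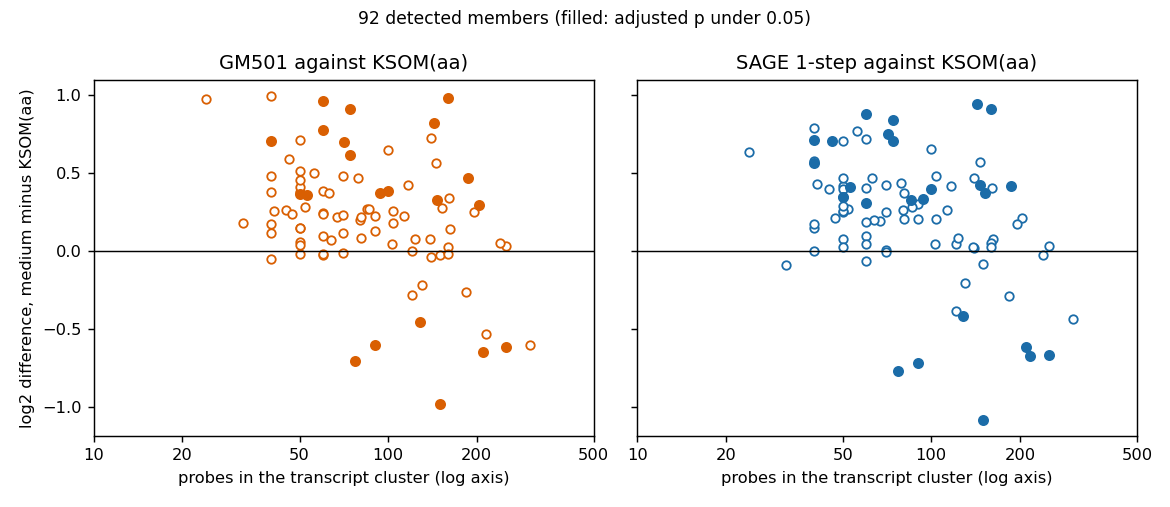
Log2 difference from KSOM(aa) against the number of probes in the transcript cluster (log axis) for the 92 detected genes, GM501 on the left and SAGE 1-step on the right; filled points have a limma adjusted p under 0.05. Of the 35 genes with up to 60 probes, 31 lay above 0 in GM501 and 33 in SAGE 1-step, and of the 29 with more than 120, 17 and 18.

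The promoters of the genes were read for motifs of factors known to drive nuclear genes of respiration, and those of 6 called genes are printed because they show the motifs in genes that moved in opposite directions. RefSeq promoter windows (GRCm38.p6, 250 bases before to 50 after the start) were matched for 77 of the 94 genes and, for comparison, for 27025 genes in all. Both strands were searched, and no motif overlapped another. NRF1 (GCGCATGCGC, with any base in the sixth place) matched in 19 of the 77 (24.7%, against 5.19% of all genes), the ETS-family motif of GABP (CCGGAAG) in 17 (22.1%, against 9.93%), YY1 (AAGATGGCG) in 8 (10.4%, against 1.64%) and the estrogen-related receptor motif (TCAAGGTCA) in 2 (2.60%, against 0.466%). At least 1 motif stood in 10 of the 23 called genes with a window, against 38 of all 77, and 2 of the 10, Uqcrc1 and Ndufa9, were lower than in KSOM(aa). Capitals mark the matched motifs in the strand of the gene, a GABP match on the opposite strand reading CTTCCGG. A match is a description of the letters only.
Uqcrc1 (lower; NRF1, 2 matches; chr9:108936398-108936697, plus strand): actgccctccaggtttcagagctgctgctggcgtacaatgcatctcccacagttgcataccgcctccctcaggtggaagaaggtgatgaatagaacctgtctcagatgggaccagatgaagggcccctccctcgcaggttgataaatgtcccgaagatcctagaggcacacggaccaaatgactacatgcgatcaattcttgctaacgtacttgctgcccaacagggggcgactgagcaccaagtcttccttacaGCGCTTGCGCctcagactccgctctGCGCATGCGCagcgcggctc
Ndufa9 (lower; YY1; chr6:126849095-126849394, minus strand): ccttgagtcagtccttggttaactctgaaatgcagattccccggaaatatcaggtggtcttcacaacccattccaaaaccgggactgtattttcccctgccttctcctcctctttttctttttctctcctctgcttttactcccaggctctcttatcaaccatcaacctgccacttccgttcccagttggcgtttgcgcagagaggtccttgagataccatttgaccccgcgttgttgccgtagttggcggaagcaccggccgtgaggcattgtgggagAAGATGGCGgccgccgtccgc
Ndufaf5 (higher; NRF1; chr2:140170396-140170695, plus strand): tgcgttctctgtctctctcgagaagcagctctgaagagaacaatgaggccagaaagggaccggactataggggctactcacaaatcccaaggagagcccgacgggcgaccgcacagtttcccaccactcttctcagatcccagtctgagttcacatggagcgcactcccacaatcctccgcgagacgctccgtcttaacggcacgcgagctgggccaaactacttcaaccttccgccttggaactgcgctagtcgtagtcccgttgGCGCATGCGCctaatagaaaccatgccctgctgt
Atp5k (higher; NRF1 and GABP; chr5:108434350-108434649, minus strand): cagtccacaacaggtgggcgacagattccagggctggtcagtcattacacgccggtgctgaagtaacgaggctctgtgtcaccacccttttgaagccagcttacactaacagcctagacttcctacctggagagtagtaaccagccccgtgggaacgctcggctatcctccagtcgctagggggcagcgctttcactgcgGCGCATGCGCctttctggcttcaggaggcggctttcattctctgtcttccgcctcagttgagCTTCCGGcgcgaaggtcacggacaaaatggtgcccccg
Uqcrh (higher; GABP; chr4:116075021-116075320, minus strand): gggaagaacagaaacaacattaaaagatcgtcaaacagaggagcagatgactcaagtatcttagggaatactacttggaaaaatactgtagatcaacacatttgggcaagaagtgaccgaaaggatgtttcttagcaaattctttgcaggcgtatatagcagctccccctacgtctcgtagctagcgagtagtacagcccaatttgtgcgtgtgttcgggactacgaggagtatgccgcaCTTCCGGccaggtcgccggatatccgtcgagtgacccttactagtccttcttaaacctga
Ndufs4 (higher; YY1; chr13:114388045-114388344, minus strand): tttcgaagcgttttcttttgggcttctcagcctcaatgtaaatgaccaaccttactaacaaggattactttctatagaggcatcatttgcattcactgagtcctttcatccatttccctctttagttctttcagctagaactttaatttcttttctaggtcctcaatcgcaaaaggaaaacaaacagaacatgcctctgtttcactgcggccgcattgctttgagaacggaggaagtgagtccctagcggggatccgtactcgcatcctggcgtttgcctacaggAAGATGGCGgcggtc
Uqcrc1 and Ndufaf5, printed for their opposite directions of change, carry the same NRF1 letters, GCGCATGCGC. Ndufa9 and Ndufs4, printed for the same reason, carry the same YY1 letters. Of the called genes with a window, NRF1 matched in 5 of 18 higher and 1 of 5 lower ones. GABP matched in 3 and 0 of them, and YY1 in 2 and 1. Whether a motif goes with a direction was not tested.

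The clinical media, which share their embryos, were then compared with each other. Between GM501 and SAGE 1-step half-embryos none of the 94 genes was called, nor any of the 40160 transcript clusters (0%, limma), where 1 of the 94 and 611 of all had an unadjusted p under 0.05 and the unmoderated test of the study's methods also called 0 after adjustment. At 0.01 unadjusted, that test called 0 of the 94 genes and 0.154% of all transcript clusters. These fits did not pair the sisters. With embryo as a replicate block, limma again called 0 of the 94, and 1 of all transcript clusters, with 1584 of all at an unadjusted p under 0.05. Ndufa1, Ndufb3 and Cox6b1, chosen for naming after their values were seen, were lower in GM501 in 9 of 10 sister pairs. Of the 94 genes 39 were above 0 and 55 below, with differences between −0.27 and 0.34 and a median of −0.02. The medians by complex ran between −0.06 for Cycs and −0.01 for complexes I, II and III. Uqcrc1 differed by 0.10 ± 0.30 and Ndufaf5 by 0.07 ± 0.25 (SE).

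The sets of embryos were read from these same signals, so the differences between them are described and not ranked against those between media. In embryos 9 to 14 the mean log2 signal of the 92 detected genes per half-embryo was 11.51, 11.93 and 12.09 (lowest, median, highest, n = 12), in embryos 15 to 18 it was 11.17, 11.30 and 11.54 (n = 8), and in KSOM(aa) 11.26, 11.41 and 11.71 (n = 16). The half-embryos of embryos 15 to 18 overlapped KSOM(aa), and most of embryos 9 to 14 lay above both. The median difference of the genes between embryos 9 to 14 and embryos 15 to 18 was 0.55, against 0.30 for all transcript clusters, and 79 of the 94 were above 0. Other gene classes showed such a shift too. The median was 0.602 for mitochondrial ribosomal proteins (66 of 77 above 0), 0.425 for cytosolic ones (72 of 86) and 0.098 for the proteasome (19 of 31). The median of the 94 genes was smaller with every array centred on its median, as given in the last section. Complex I again had the highest median of the complexes, 0.81, followed by complex III with 0.54, complex II with 0.53, complex IV with 0.46 and complex V with 0.37, and Cycs differed by 0.60.

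For 34 of the 94 genes every half-embryo of embryos 9 to 14 exceeded every one of embryos 15 to 18, where 4.42% of all transcript clusters did so. None of the 94 showed the reverse, where 1.58% of all did. Of the 34 genes 22 belong to complex I, 2 to complex III, 6 to complex IV and 4 to complex V. Ndufaf3 had 7.32, 8.09 and 8.97 log2 units in embryos 9 to 14 (lowest, median, highest), 6.22, 6.53 and 6.75 in embryos 15 to 18 and 5.96, 6.62 and 7.08 in KSOM(aa), so that embryos 9 to 14 stood clear of both. Cox7a1, muscle isoform of complex IV, had 10.99, 12.82 and 14.05 in embryos 9 to 14 and 8.06, 10.12 and 10.97 in embryos 15 to 18, a difference of 2.79 that was the largest of the 94. Atp5k had 12.60, 13.20 and 13.71 in embryos 9 to 14 and 11.42, 11.75 and 12.23 in embryos 15 to 18.

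Several core and catalytic subunits had differences of the other sign between the sets, while others, such as Uqcrfs1 (0.54) and Sdhb (0.37), did not. Uqcrc1 had 11.55, 12.99 and 13.96 log2 units in embryos 9 to 14 (lowest, median, highest) and 12.75, 14.22 and 14.73 in embryos 15 to 18, and Atp5b 12.18, 12.97 and 13.46 against 13.30, 13.85 and 13.92. The sets overlapped for both genes, and the differences were −1.07 and −0.84. Over the 18 core and catalytic subunits the mean signal per half-embryo was 11.58 ± 0.28 in embryos 9 to 14, 11.66 ± 0.20 in embryos 15 to 18 and 11.86 ± 0.15 in KSOM(aa) (SD over half-embryos). The 74 other detected genes had a median difference between the sets of 0.66, with 69 above 0.

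**Figure D4:**
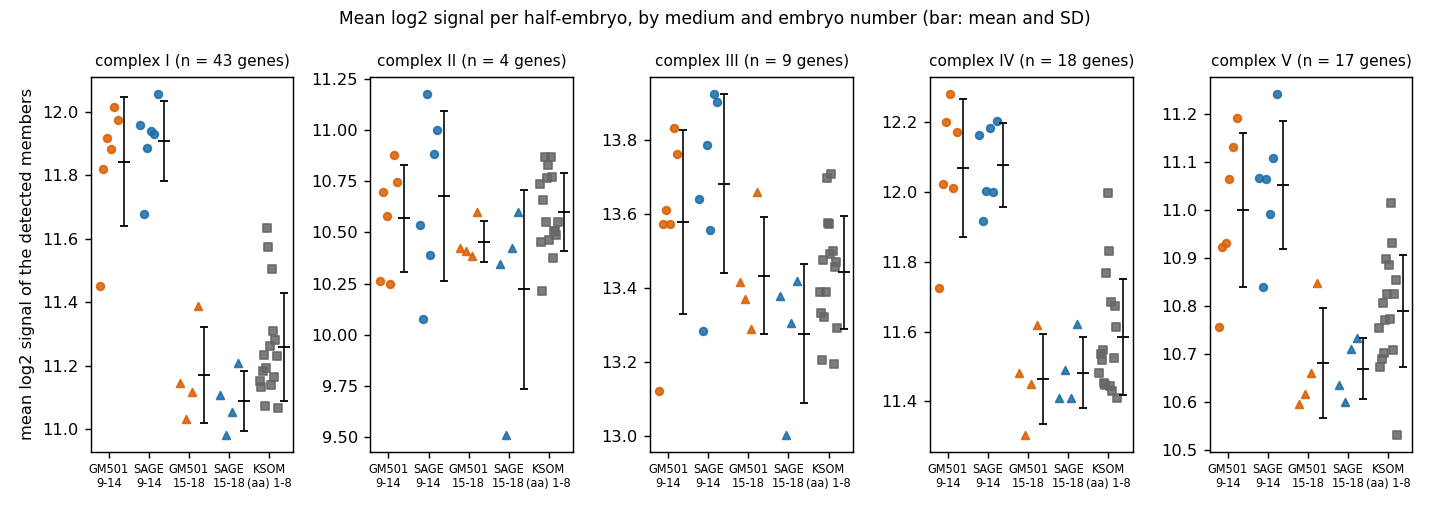
Mean log2 signal of the detected genes of each complex in every half-embryo, split by medium and embryo number, with the mean and SD as bars; the vertical axes differ between panels, since levels of different genes are not comparable. In complexes I and IV the circles of embryos 9 to 14 lie above most triangles of embryos 15 to 18 and squares of KSOM(aa), complexes III and V show the same except for half-embryos 9a and 10b in complex III and 9a in complex V, which lie lower, and complex II overlaps throughout.

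Against KSOM(aa) the sets gave different counts. Since the sets were read from these signals, the counts and p-values within a set are descriptive and not valid tests. Within embryos 9 to 14 (n = 6 per clinical medium), 59 of the 94 genes were higher and 9 lower in GM501 and 61 higher and 10 lower in SAGE 1-step. These counts stand beside 52.0% of all transcript clusters called in GM501 (42.6% higher and 9.40% lower) and 46.5% in SAGE 1-step (37.9% higher and 8.60% lower). Within embryos 15 to 18 (n = 4 per clinical medium), 0 of the 94 were called in GM501 (0.690% of all, 0.314% higher and 0.376% lower). Of the 94, 14 had an unadjusted p under 0.05 there. In SAGE 1-step 2 were lower (0.732% of all, 0.251% higher and 0.481% lower), Cyc1 at −0.62 and Ndufb9 at −0.43. With embryo as a replicate block 1 of these was called, and with every array centred on its median 0. The medians of the 94 were 0.42 and 0.51 in embryos 9 to 14 and −0.09 and −0.15 in embryos 15 to 18. Whether the difference from KSOM(aa) itself differed between the sets was not tested, since the sets were read from the signals. Without any overlap, 13 genes lay above KSOM(aa) in embryos 9 to 14 (2.37% of all did), 9 of them in complex I, and 3 lay below (1.22%), the F1 subunits Atp5a1, Atp5b and Atp5d. In embryos 15 to 18 no gene of the 94 lay clear of KSOM(aa) in either direction (0.0224% above and 0.0523% below over all). Over all embryos of a medium no gene of the 94 did so either, in GM501 (0.0125% above and 0.0299% below over all) or in SAGE 1-step (0.00996% above and 0.0324% below). For 6 genes, Cox5a among them, every half-embryo of embryos 9 to 14 lay above the KSOM(aa) mean and every one of embryos 15 to 18 below it, and 0.996% of all transcript clusters had the sets on opposite sides, in either order. The test of whether the difference of GM501 and SAGE 1-step itself differed between the sets called 0 of the 94 genes and 0 of all transcript clusters in limma, with 4 of the 94 at an unadjusted p under 0.05.

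Half-embryos of 1 KSOM(aa) embryo were closer to each other than to strangers for most of the 94 genes, which was described without a test. In KSOM(aa), the median over the 94 genes of the absolute log2 difference was 0.175 between sisters (8 pairs) and 0.25 between unrelated half-embryos (112 pairs), against 0.29 and 0.335 over all detected transcript clusters. Sisters were the closer pair for 75 of the 94 genes (79.8%, against 61.1% of detected transcript clusters). Sisters can also share traits of the whole array, as 4a and 4b did with the lowest Rn18s signals of KSOM(aa) (17.96 and 18.17). The part of such shared shifts was not tested. By complex the sister and unrelated values were 0.185 and 0.295 for complex I, 0.255 and 0.472 for complex II, 0.18 and 0.21 for complex III, 0.158 and 0.20 for complex IV and 0.13 and 0.22 for complex V, where sisters were closer for 16 of 17 genes. Cytosolic ribosomal proteins gave 0.12 and 0.14, mitochondrial ribosomal proteins 0.28 and 0.32, and the proteasome 0.18 and 0.29, so the gap of the respiratory genes was wider than for either class of ribosomal proteins and narrower than for the proteasome. Atp5b showed a sister difference of 0.07 and an unrelated one of 0.11. Sdhd, a membrane anchor of complex II chosen for naming after its values were seen, was farthest the other way, with 1.005 between sisters and 0.65 between unrelated half-embryos.

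**Figure D5:**
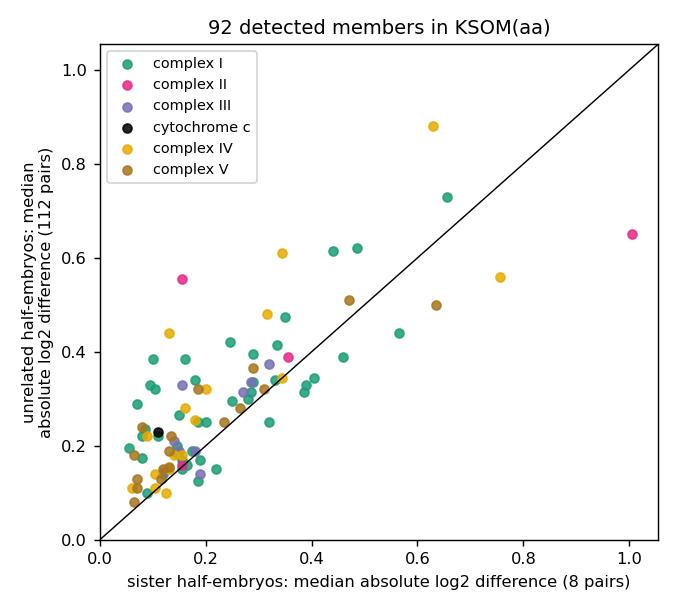
Median absolute log2 difference of each of the 92 detected genes in KSOM(aa), between sisters (horizontal axis, 8 pairs) and between unrelated half-embryos (vertical axis, 112 pairs), coloured by complex; the line marks equal values. Of the 92 genes 75 lie above the line, and Sdhd lies farthest right.

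Sisters that were split between GM501 and SAGE 1-step had a median absolute difference over the 94 genes of 0.182 (10 pairs), with 0.192 in embryos 9 to 14 and 0.180 in embryos 15 to 18. The value was 0.175 for sisters that both grew in KSOM(aa), which were also cultured apart. The complexes varied around this: split sisters and KSOM(aa) sisters had 0.165 and 0.185 in complex I, 0.378 and 0.255 in complex II, 0.24 and 0.18 in complex III, 0.157 and 0.158 in complex IV and 0.215 and 0.13 in complex V. Split sisters were thus farther apart in complexes II, III and V, as they were over all detected transcript clusters (0.305 and 0.29), and no test was made of these differences. The mean of the 92 detected genes differed between sisters by 0.00 to 0.19 in KSOM(aa), by 0.00 to 0.45 in embryos 9 to 14 and by 0.03 to 0.13 in embryos 15 to 18. The widest gap was that of embryo 9, where the complex I means of the sisters were 0.51 apart and the complex III means 0.52. In complex II it was that of embryo 16, with 0.90, whose half-embryo 16b had the lowest Hprt signal of all arrays (13.51).

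The rest of the pathway, from lists of its other genes, moved in part with the 94. Beside the counts below, 7.66% of all transcript clusters were called in GM501 and 9.55% in SAGE 1-step over all embryos. Of the detected ones, 12.5% and 15.3% were called. Of 9 transcript clusters for mitochondrially encoded subunits, 1 was higher and 1 lower in each medium, with medians of −0.07 and −0.06. ND2, a membrane subunit of complex I, was lower, at −0.67 ± 0.13 in GM501 (adjusted p = 0.00233) and −0.61 ± 0.13 in SAGE 1-step (adjusted p = 0.00355), and ND6, the subunit read from the opposite strand of mitochondrial DNA, was higher by 0.72 ± 0.19 (adjusted p = 0.0162) and 0.68 ± 0.19 (adjusted p = 0.0195). Of 34 assembly factors of complexes II to V, 6 were higher and 1 lower in GM501 and 8 higher and 1 lower in SAGE 1-step. Those with the largest differences were Sdhaf4 of complex II (1.30 and 1.38), Cox20 of complex IV (1.19 and 1.25) and Lyrm7 of complex III (0.85 and 1.03), and the lower one was Pet117 of complex IV (−0.59 and −0.51). Of 8 further genes for complex I assembly 1 was higher in GM501, and 2 higher and 1 lower in SAGE 1-step. Nubpl, which supplies iron-sulfur clusters to complex I, was higher by 1.34 and 0.89, and in SAGE 1-step Tmem126b was higher by 1.14 and Ecsit lower, at −0.75. Within embryos 9 to 14, 14 of the 34 assembly factors were higher and 5 lower in GM501 and 15 higher and 3 lower in SAGE 1-step, and of the mitochondrially encoded subunits 2 were higher and 1 lower and 2 higher and 2 lower. Of all transcript clusters, 42.6% were higher and 9.40% lower in GM501 within these embryos, and 37.9% and 8.60% in SAGE 1-step. Within embryos 15 to 18, 1 assembly factor was higher and 1 mitochondrially encoded subunit lower in GM501, and none of either list was called in SAGE 1-step, where 10 and 3 had an unadjusted p under 0.05.

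The tricarboxylic acid cycle, which feeds the chain with NADH and succinate, had 0 of 14 genes higher, 4 lower in GM501 and 5 lower in SAGE 1-step. Among these, Cs, the citrate synthase, was lower, at −1.19 ± 0.28 in both media (adjusted p = 0.00710 and 0.00624), Ogdh at −1.12 and −1.09 and Dlst at −0.95 and −0.90, with Mdh2 at −0.52 in SAGE 1-step. Within embryos 9 to 14, 1 gene of the cycle was higher and 7 lower in GM501 and 6 lower in SAGE 1-step. Of all transcript clusters, 42.6% were higher and 9.40% lower in GM501 there, and 37.9% and 8.60% in SAGE 1-step. Within embryos 15 to 18 limma called 0 of the 14 in either medium (medians −0.02 and −0.15, with 1 and 3 at an unadjusted p under 0.05). Among 14 transcriptional regulators of respiration, Tfam, which packages and transcribes mitochondrial DNA, was higher by 0.77 and 0.68, Mterf3 by 0.89 and 0.93 and Tfb1m by 1.02 in SAGE 1-step, while the coactivator Pprc1 was lower, at −0.60 and −0.70. Of 11 genes for adenine nucleotide and proton transport, Atpif1, the inhibitor of ATP synthase, was the only one called, higher by 0.56 and 0.67. Pyruvate entry had Mpc2, a subunit of the pyruvate carrier, higher by 0.51 and 0.61 and Pdhx lower, at −0.75 in SAGE 1-step, of 13 genes. Coenzyme Q synthesis and electron entry had 2 of 16 genes lower in GM501, Coq3 at −1.03 and Coq6 at −0.42, and none called in SAGE 1-step. The counts of the transport, pyruvate entry and coenzyme Q lists lay near or below the shares over all transcript clusters (7.66% in GM501 and 9.55% in SAGE 1-step) or over the detected ones (12.5% and 15.3%). Within embryos 15 to 18 no gene of the 4 lists from transcriptional regulators to coenzyme Q was called by limma in either medium. There 0 to 4 genes of a list had an unadjusted p under 0.05.

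Cytosolic ribosomal, mitochondrial ribosomal and proteasome genes were counted in the same way, beside 7.66% of all transcript clusters called in GM501 and 9.55% in SAGE 1-step. Cytosolic ribosomal proteins had 5 of 86 genes higher and 0 lower in GM501 (median 0.22) and 11 higher and 1 lower in SAGE 1-step (median 0.18). Mitochondrial ribosomal proteins had 9 of 77 higher and 2 lower (median 0.28) and 10 higher and 2 lower (median 0.26), and the proteasome had 0 of 31 higher and 5 lower (median −0.24) and 0 higher and 12 lower (median −0.35). Within embryos 9 to 14, 61 cytosolic ribosomal protein genes were higher and 4 lower in GM501 and 63 higher and 5 lower in SAGE 1-step, against 45 and 5 and 49 and 3 for the mitochondrial ones and 5 and 12 and 9 and 12 for the proteasome. Of all transcript clusters, 42.6% were higher and 9.40% lower in GM501 within these embryos, and 37.9% and 8.60% in SAGE 1-step. Within embryos 15 to 18, limma called 2 proteasome genes lower in SAGE 1-step and no other gene of the 3 classes, where 1 to 23 genes of a class had an unadjusted p under 0.05. Markers of cell types moved beside these. Trophectoderm markers were lower for 4 of 7 in each medium (Eomes, Krt8, Krt18 and Tfap2c), and their mean log2 signal per half-embryo ranged between 12.00 and 12.72 in GM501, 11.55 and 12.93 in SAGE 1-step and 12.58 and 13.28 in KSOM(aa). Epiblast markers had 0 of 6 called in GM501 and 1 in SAGE 1-step, Pou5f1, lower, at −1.30, with ranges of 6.81 to 8.45, 6.70 to 7.91 and 7.24 to 8.69. Primitive endoderm markers had 1 of 6 called, Col4a1, higher by 0.28 and 0.29, with ranges of 6.34 to 7.33, 6.12 to 7.18 and 5.95 to 7.15, and cumulus and granulosa markers 0 of 9, with ranges of 4.22 to 5.03, 4.29 to 4.98 and 4.37 to 4.78. Within embryos 9 to 14, GM501 had 5 trophectoderm markers lower and SAGE 1-step 6, against 9.40% and 8.60% of all transcript clusters. Of the 6 epiblast markers, 1 was higher and 2 lower in GM501, and 1 higher and 1 lower in SAGE 1-step. Of the 6 primitive endoderm markers 2 and 1 were higher, and of the 9 cumulus and granulosa markers 5 and 4. Over all transcript clusters 42.6% and 37.9% were higher. Within embryos 15 to 18 no marker of the 4 cell types was called by limma, with trophectoderm medians of −0.29 and −0.24 and 3 of the 7 at an unadjusted p under 0.05 in each medium. Each array holds the RNA of a whole blastocyst, in which fewer cells of a type and less RNA per cell cannot be told apart, and the part of cell makeup in the respiratory gene differences was not tested.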

How the data were processed

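RNA of each blastocyst was amplified with the WT Pico kit and hybridised by the authors to 1 Affymetrix Mouse Transcriptome Array 1.0, 36 in all. The deposited values are log2 signals, 1 per transcript cluster and array, which the authors made with the Affymetrix Expression Console and the Transcriptome Analysis Console by signal space transformation and robust multiarray averaging (mm10 annotation). Which arrays were normalized together is not given in the sources used here. In half-embryo 1a the deposited column was treated as a score: 1 cell lies outside any log2 range, so its transcript cluster was dropped (1 of 65956). The rest ran between 2.09 and 19.17. Arrays have no read depth, and their number limits the precision.

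Genes were named from the deposited symbols: 36570 transcript clusters had 1 symbol, 3590 several and 25795 none, which left 40160 to test. The genes, their roles and the other lists were chosen with earlier results of these data known, so lists are described by counts and medians without a test. Detection required a signal over the 90th percentile of the 1595 transcript clusters for olfactory and vomeronasal receptors on the same array, in 50% or more of the half-embryos of some medium (22770). The tests between media used limma 3.58.1 (R 4.3.3) over all 36 arrays (trended prior variance, 2-sided, Benjamini-Hochberg over 40160, threshold 0.05). Sisters share an embryo, so embryo was also fitted as a replicate block (consensus correlation 0.374). Tables and figures were made in Python 3.11.15 with pandas 2.3.3, numpy 2.4.6, scipy 1.17.1 and matplotlib 3.10.9. Of the 94 genes 40 were named by a rule: catalytic subunits and isoform pairs, the 6 largest called differences in each direction, and the extremes of each complex. Other called genes are listed with their differences. Alternatives were another normalization, scaling, filter, block, set of arrays and test. Of the genes so named and listed, 2 are not reported here.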

Additional observations from a re-analysis of the deposited data

Results flagged for a closer look

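Cox6a2, the heart and muscle isoform of a complex IV subunit, was high in both half-embryos of embryo 14. In GM501 half-embryo 14a its log2 signal was 8.62, while the other 9 GM501 half-embryos lay between 4.63 and 6.44. Its SAGE 1-step sister 14b had 7.64, the highest value of that medium. The gap in GM501 was the only one of its kind in 96 groups of values checked. In values from 1 normal distribution, chance alone gives such a gap in about 1 in 20 groups. The groups checked mix both sets of embryos, so that rate need not hold here. Cox6a2 exceeded the receptor level in 80.0% of GM501 and 70.0% of SAGE 1-step half-embryos.

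Cox5a, a nuclear subunit of complex IV, lay on opposite sides of KSOM(aa) in the 2 sets of embryos. The mean of embryos 9 to 14 was 0.34 above the KSOM(aa) mean, with all 12 half-embryos above it by 0.16 to 0.57, and the mean of embryos 15 to 18 was at −0.16, with all 8 half-embryos below. The difference between the sets was not tested. Ndufb3, Ndufb9, Ndufs6, Ndufv3 and Atp5s, chosen for naming after their values were seen, showed the same, which made 6 of the 94 genes, against 0.996% of all tested transcript clusters.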

How the results depend on the processing

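The counts of called genes, 21 for GM501 and 25 for SAGE 1-step over KSOM(aa), moved by over 1.5 times in these settings. In GM501 they were 13 with arrays centred on their median, 82 scaled to Actb, Gapdh and Hprt, 47 with array weights, 1 with KSOM(aa) sisters averaged and 36 by the methods' t-test at 0.01 unadjusted. In SAGE 1-step they were 83 scaled, 65 with weights and 2 with sisters averaged. Embryos 9 to 14 alone gave 68 in GM501 and 71 in SAGE 1-step, with and without embryo as a replicate block. Embryos 15 to 18 alone gave 0 in GM501, also with the replicate block, quantile normalization, centring and without any 1 of the embryos (0 to 0). In SAGE 1-step these embryos gave 2, with 1 under the replicate block, 2 after quantile normalization, 0 after centring and 0 to 2 without any 1 of the embryos (0 without embryo 15, and 1 without embryo 16 or 17). Over all 40160 transcript clusters these fits of embryos 15 to 18 called 35 to 486 in GM501 and 67 to 2141 in SAGE 1-step. The 2141 came without embryo 16, against 294 with all 4 embryos. Half-embryo 16b had the highest array median of these embryos, 5.36. The other settings gave 17 to 29 in GM501 and 20 to 37 in SAGE 1-step. Over all arrays the replicate block gave 18 and 20. GM501 against SAGE 1-step gave 0 in every setting run.

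Scaling to Actb, Gapdh and Hprt moved the median of all transcript clusters to 0.61 in GM501, 0.69 in SAGE 1-step and 0.91 between embryos 9 to 14 and embryos 15 to 18. In that order, the medians became 0.88, 1.00 and 1.42 for complex I, 0.53, 0.46 and 1.13 for complex II, 0.64, 0.79 and 1.14 for complex III, 0.72, 0.86 and 1.21 for Cycs, 0.67, 0.80 and 1.06 for complex IV, 0.70, 0.80 and 0.97 for complex V and 0.75, 0.85 and 1.15 for all 94 genes. With centring the medians between the sets of embryos were 0.48, 0.19, 0.21, 0.27, 0.12, 0.03 and 0.21 in the same order of lists. Complex V was at 0.05 in GM501 and 0.06 in SAGE 1-step, and all 94 genes at 0.12 in SAGE 1-step. Single genes changed sign under the scaling: Cox4i2 to 0.50, Ndufa9 to 0.06, Cox6b1 to 0.50, Ndufs7 to 0.49 and Cox8a to 0.47 in GM501, and Ndufa9 to 0.18 and Cox8c to 0.50 in SAGE 1-step. In embryos 15 to 18 alone, Atp5k stood at −0.09, Ndufaf3 at −0.01 and Atp5a1 at 0.02 in GM501, and Uqcr10 at −0.03 in SAGE 1-step. Cox6b1 stood at 0.31 in GM501 in embryos 9 to 14 alone. Beyond the changes that fewer samples or a common shift bring by construction, the cause was not tested. A signal near the receptor level bounds what the dimmest genes can show.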
